A study of Homo sapiens with 6 samples.

Results

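Gene expression was compared between tumours heated 4 h earlier and tumours of control animals, by the pool means of 4 of the 6 arrays of the series. The tumours grew from HT-29, an established cell line of a human colorectal adenocarcinoma, after 0.1 ml of cell suspension had been injected at both femoral sites of Balb/c (nu/nu) mice, which lack a thymus, at 6 to 8 weeks of age. On day 18 the treated animals received an electromagnetic heat treatment of 30 min (modulated electro-hyperthermia, per the series title), and tissue was sampled 4 h afterwards. Frozen tumour sections were dissected and the RNA of each group was pooled. The control pool came from tumours of animals labelled control, the treated pool from the heated tumours, and a remaining pool, labelled untreated, from the opposite side of the treated animals. That opposite-side pool is given below as a level beside the genes compared, and as call counts and list medians against the same control pool. Each pool was hybridised to 2 human arrays that the labels call technical replicates, so the spread shown is that of the arrays and not of animals. The number of animals in a pool is not given in the sources used here. Because each group was 1 pool, the conditions could not be tested against each other, and every difference below is a difference between 2 pools of RNA. In pooled tissue, fewer cells of a type and less RNA per cell cannot be told apart.

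Heat unfolds proteins, and the transcription factor HSF1 then switches on genes for chaperones, which bind unfolded proteins and help them refold. Cells under stress also switch on immediate early genes through MAP kinase signalling, serum response factor and AP-1, and the products of these genes include feedback inhibitors of the same signals. The colon epithelium from which such tumours derive makes mucins and trefoil peptides in its goblet cells, and tumour tissue short of oxygen expresses targets of the hypoxia-inducible factors.

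The values were log2 GCRMA values of 54675 probe sets, and each of 19775 genes was read from its brightest probe set, taken by the mean of all 6 arrays. A gene was taken as detected at or above 5 (log2) in either pool, which 7204 genes were. A call needed a difference of pool means of at least 1.5-fold (0.585 on the log2 scale), the same sign in all 4 differences between a treated and a control array, and values at or above 5 on both arrays of the pool with more signal. By this rule 201 genes were higher in the treated pool (2.79% of those detected) and 116 were lower (1.61%). At 2-fold the counts were 45 higher (0.625%) and 7 lower (0.0972%). The range between 1.5-fold and 2-fold therefore held 156 calls in the higher direction and 109 in the lower. Of the 317 genes called at 1.5-fold, 118 were in at least 1 of the 50 functional and 7 marker lists used below. The other 199 were in no list, so the functions described cover a part of the calls. The lower pool was below 5 in 41 higher genes out of 201 and in 23 lower genes out of 116, and their folds are lower bounds computed against 5.

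Differences of that size were rare between arrays of a pool, but a pool of unheated tumours differed from the control pool about as widely. Between the 2 control arrays 1 detected gene was 1.5-fold apart, and between the 2 treated arrays 3 genes were. The median absolute difference was 0.049 between the control arrays, 0.056 between the treated arrays and 0.15 between the treated and control pool means. The opposite-side pool, which had not been heated, differed from the same control pool by a median of 0.15 as well, with 105 genes higher (1.46% of 7182) and 169 lower (2.35%) at 1.5-fold. In all, 274 genes were called between these unheated pools and 317 between the treated and control pools. Both comparisons share the control arrays. At 2-fold the opposite-side pool had 17 genes higher and 12 lower than control. Leaving out 1 array ended 26 to 34 of the 317 calls. Among the genes named here these were GJB2, MCL1, MRPL54, MUC1, CD59, DLEU2, IFITM3, PLK4, PTGS2, REG4, TPM4, ULBP2, FOSL2, SERPINA1, LATS1, NDUFA10 and TFF3, which then differed by 0.41 (TFF3, lower) to 0.584. A gene between 1.5-fold and 2-fold is thus described here only as a difference between the treated and control pools, with the opposite-side level given for many of them.

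**Figure D1:**
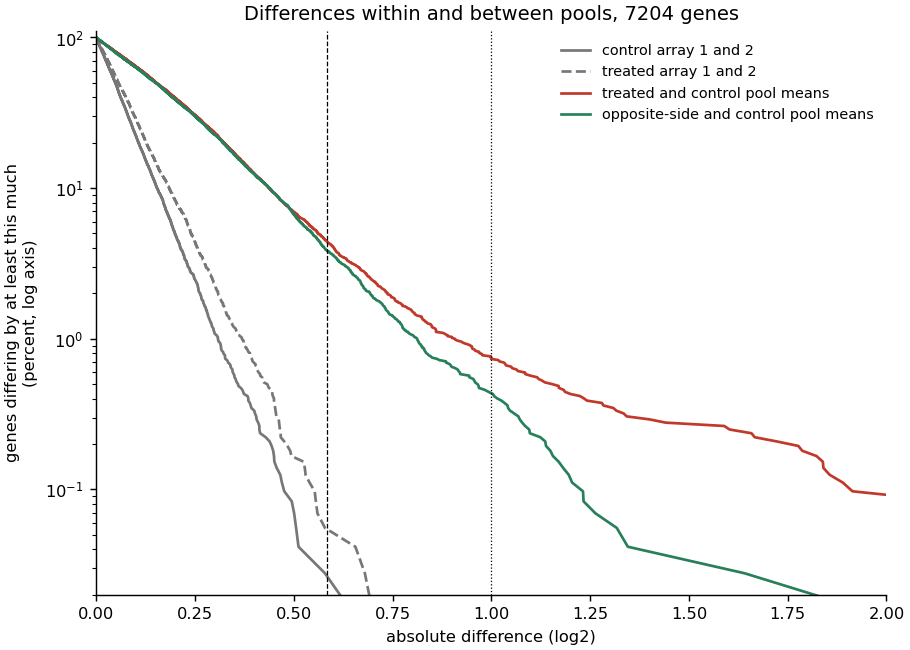
Percent of 7204 detected genes (log axis) whose absolute log2 difference was at least the value on the x axis, between the 2 arrays of a pool (grey) and between pool means (red, treated and control; green, opposite side and control). The dashed line is 1.5-fold and the dotted line 2-fold; the red and green curves run together up to about 1.5-fold, with median differences of 0.15 each, and the red curve lies above the green past 2-fold.

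Higher calls outnumbered lower ones in each range of expression, by the smallest ratio near the detection limit. Ranges were set by the larger of the treated and control pool means. Among 1890 genes with that value from 5 to 6, 47 were higher and 41 lower. From 6 to 8 the counts were 90 and 50 of 3493 genes, from 8 to 10 they were 54 and 22 of 1417, and at 10 or more they were 10 and 3 of 404. Of the called genes, 63.4% were higher, although the median difference of all detected genes was -0.02. The members nearest the threshold were TPM4 (0.585) inside and USP31 (0.5845) outside among the higher genes, and DLEU2 (0.5865, lower) inside and TTC32 (0.5835, lower) outside among the lower.

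Promoter sequence is shown first for the motif matches shared by called genes. The window ran from 250 bases before to 50 bases after the annotated start in RefSeq's table for GRCh38.p14, which holds 27305 promoters. It matched 33 genes higher by 2-fold, 126 genes higher by 1.5-fold to 2-fold and 91 lower genes. A heat shock element, here 3 alternating GAA and TTC units with 2 bases between units on either strand, occurred in 0.487% of all promoters and 0.362% of those of detected genes. It occurred in 3 of the 33 promoters of 2-fold higher genes, in 1 of the 126 (DNAJA1, inside the transcribed part and not shown) and in 0 of the 91. The 3 promoters are printed on the gene's own strand, with the matched bases in capitals.
HSPA6 (chr1:161524446-161524498, plus strand): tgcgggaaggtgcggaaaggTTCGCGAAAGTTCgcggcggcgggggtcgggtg
SERPINH1 (chr11:75562157-75562209, plus strand): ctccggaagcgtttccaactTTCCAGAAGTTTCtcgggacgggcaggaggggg
CHORDC1 (chr11:90223067-90223129, minus strand): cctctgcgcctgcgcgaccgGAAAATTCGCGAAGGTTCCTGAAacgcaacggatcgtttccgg
The CHORDC1 capitals cover 3 overlapping matches. A match is a description of the letters and not evidence of binding, and a gene without a match in this window can hold the motif elsewhere.

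The CArG box, the motif that serum response factor binds, occurred in 1.29% of all promoters and 1.1% of those of detected genes. It was found in 2 of the 33 promoters of 2-fold higher genes (EGR1 and ACTA1), in 4 of the 126 (AKAP12, FILIP1L, FSTL3 and TPM4) and in 0 of the 91 promoters of lower genes. The 4 in the smaller class and EGR1, which holds 2 matches, are printed to show the shared letters.
EGR1 (chr5:138465354-138465425, plus strand): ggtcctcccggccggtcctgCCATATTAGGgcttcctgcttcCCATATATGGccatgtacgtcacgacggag
AKAP12 (chr6:151239866-151239915, plus strand): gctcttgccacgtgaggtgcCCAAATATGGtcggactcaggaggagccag
FILIP1L (chr3:99876204-99876253, minus strand): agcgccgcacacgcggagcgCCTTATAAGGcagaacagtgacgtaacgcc
FSTL3 (chr19:676341-676390, plus strand): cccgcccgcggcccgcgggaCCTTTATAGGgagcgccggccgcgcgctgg
TPM4 (chr19:16067345-16067394, plus strand): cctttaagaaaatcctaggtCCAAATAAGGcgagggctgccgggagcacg
AP-1 (TGANTCA) was in 4 of the 33 promoters (12.1%) and 7 of the 126 (5.56%), against 4.07% of those of detected genes. The TEAD motif GGAATG was in 8 of the 33 (24.2%) and in 11.9% of the 126 against 10.4%, and the hypoxia motif GACGTG in 7.69% of the 91 promoters of lower genes against 11.3%. A TATA box (TATAAA), on either strand, was in 18.2%, 10.3% and 14.3% of the 3 sets and in 5.19% of the promoters of detected genes. Over all promoters the shares were 7.76% for AP-1, 14% for TEAD, 7.89% for GACGTG and 12% for the TATA box. The shares of AP-1, TEAD and the TATA box in the 126 promoters were below these.

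The heat shock genes supplied many of the largest differences, and their smaller shifts lay in partners of the same chaperones. The largest of all was HBE1, annotated as embryonic haemoglobin epsilon, at 6.16 and 5.92 in control, 11.23 and 11.21 in treated and 7.04 and 7.09 in opposite-side arrays. It rests on 1 probe set, since the other stood at the lowest value, 2.37, in both pools. Of the 5 red blood cell markers measured 0 were detected, and a probe set shared by the alpha globin genes HBA1 and HBA2 was at 2.65 in control and 5.05 in treated tumours. HSPA6, the strictly inducible HSP70, read 4.88 and 4.82 on the control arrays and 8.69 and 8.73 on the treated arrays, at least 13.1-fold higher. HSPA6 had a heat shock element in its promoter, as did SERPINH1, the collagen chaperone, at 6.89 and 6.87 against 8.18 and 8.14, and CHORDC1, an HSP90 co-chaperone, at 7.08 and 7.09 against 8.35 and 8.28. The opposite-side means of 7.20 for SERPINH1 and 6.91 for CHORDC1 were close to control, whereas that of HSPA6 was 5.82. Heat shock genes with larger differences than SERPINH1 and CHORDC1 included DNAJB1 (1.91), HSPH1 (1.89), BAG3 (1.86) and HSPB1 (1.40). The windows of DNAJB1, BAG3 and HSPB1 were searched and held no heat shock element as defined here.

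In the 1.5-fold to 2-fold range, 3 heat shock genes passed among those read from probe sets naming 1 gene. Probe sets naming HSPA1A, HSPA1B or HSPA8 with other genes are given further below and enter no count here. The same holds for a set naming DNAJB6, an HSP40, with TMEM135. It was 1.80-fold higher, at 6.60 in control, 7.45 in treated and 6.81 in opposite-side tumours. DNAJA1, an HSP40 that delivers clients to HSP70, stood at 8.36 and 8.39 in control and 9.15 and 9.12 in treated arrays (1.69-fold), and the opposite-side mean of 7.83 was below control. CACYBP, a co-chaperone that binds the ubiquitin ligase SIAH1, was 1.65-fold higher, with means of 9.02 against 8.30. BAG4, an HSP70 nucleotide exchange factor, was at least 1.24-fold higher from a control mean below 5. Of 8 detected genes of the HSP70 and HSP110 list 2 were higher and the median difference was 0.38. For the small heat shock proteins and BAG genes 4 of 8 were higher (median 0.57, or 0.29 with detection set at 6), for HSP90 and its co-chaperones 2 of 14 (0.21), for other genes linked to HSF1 3 of 15 (0.21, or 0.11 without the _x_at and _s_at probe sets, the kinds most open to cross-hybridisation) and for HSP40 2 of 27 (0.05). None of these lists held a lower gene, and the share called over all detected genes was 4.40%. Several partners stopped just short of the rule: FKBP4, an immunophilin of the HSP90 machine, differed by 0.57, HSPA4 by 0.51, and the mitochondrial chaperonin pair HSPE1 and HSPD1 by 0.46 and 0.45. BAG1, which like BAG4 releases nucleotide from HSP70, differed by -0.56. The 35 detected genes of the endoplasmic reticulum stress response had 0 calls and a median of 0.09, with the reticulum chaperone HSPA5 at 0.57.

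Immediate early genes and feedback regulators of MAP kinase signalling formed the next group. Of 23 detected immediate early genes 7 were higher and 0 lower, with a median of 0.15. EGR1, a zinc finger transcription factor, read 6.50 and 6.49 in control and 8.33 and 8.21 in treated arrays (3.43-fold). MYC, the growth-promoting transcription factor, read 7.30 and 7.17 against 8.22 and 8.25, just under 2-fold at 1.00. ID1, an inhibitor of basic helix-loop-helix factors, was 1.90-fold higher, KLF10 1.67-fold, the survival gene IER3 1.63-fold, and the AP-1 members JUNB at least 1.56-fold and FOSL2 1.51-fold. The other detected FOSL2 probe set differed by 0.09. The opposite-side means of EGR1 (6.75), IER3 (7.26) and JUNB (4.90) lay near the control means, while those of MYC (7.70), ID1 (8.63) and KLF10 (7.84) lay between control and treated.

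MAP kinase feedback genes were higher in 4 of 14 detected cases, with 0 lower and a median of 0.44. DUSP6, a phosphatase that switches off ERK, stood at 6.73 and 6.65 in control, 7.67 and 7.62 in treated and 7.10 and 7.21 in opposite-side arrays. Its other 2 detected probe sets differed by 1.19 and 1.13. EPHA2, a receptor tyrosine kinase, was 1.85-fold higher (6.09 to 6.98), PHLDA1 2.52-fold (5.71 to 7.04) and ELK3, an ETS factor that partners serum response factor, 1.73-fold (5.79 to 6.58). Other detected probe sets of PHLDA1 differed by 1.55 and 0.25. The ERK inhibitors SPRED1 and SPRED2 differed by 0.55 and 0.53 without passing. Among ligands of the EGF receptor family, EREG was at least 1.40-fold higher and TGFA differed by 0.56, whereas the receptors EGFR, ERBB2 and ERBB3 differed by -0.17, -0.10 and -0.28.

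Targets of the co-activator YAP and its DNA-binding partner TEAD were higher in 5 of 15 detected genes, with 13 of the 15 above control in all 4 array pairs and a median of 0.38. The opposite-side median of the same list was 0.32, with 0 genes past 1.5-fold. CCN1 and CCN2, secreted matrix proteins, were 2.05-fold and 2.09-fold higher. The LIM protein AJUBA and the junction protein AMOTL2 lay in the smaller class at 1.58-fold and 1.55-fold. For AMOTL2 the arrays read 7.46 and 7.44 in control, 8.08 and 8.09 in treated and 8.01 and 7.87 in opposite-side tumours, so the unheated side was closer to treated than to control. CCN2 showed another order, with 5.35 and 5.31, 6.38 and 6.41, and 5.43 and 5.45 in the same sequence. Outside the list, YAP1 itself was 1.57-fold higher and its inhibitory kinase LATS1 1.56-fold; these were picked after their values were seen, and the other YAP1 probe sets differed by 0.26 and 0.16.

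Inflammatory targets of NF-kB gave calls in the higher direction. Of 36 measured genes 14 were detected, and 5 of these were higher and 0 lower (median 0.32, or 0.21 with values below 5 raised to 5; 0.14 in the opposite-side pool). TNFAIP3, which shuts off NF-kB signalling, read 5.27 and 5.25 in control and 6.25 and 6.22 in treated arrays (1.97-fold), with opposite-side values of 5.94 and 5.91 in between. PTGS2, the inducible cyclooxygenase, was 1.76-fold higher with a wide spread, 5.35 and 4.88 against 5.79 and 6.07. CXCL1, a neutrophil chemokine, was at least 1.14-fold higher, CXCL8 at least 2.44-fold and TNFAIP8 2.27-fold. NFKBIA, the classical feedback inhibitor of the pathway, differed by -0.20 and the subunit NFKB1 by 0.17.

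In the actin and serum response factor list 3 of 34 detected genes were higher, but 27 of the 34 lay above control in all 4 array pairs and 3 below, with a median of 0.20 against 0.15 in the opposite-side pool. CALD1, which binds actin and tropomyosin, was 1.77-fold higher at 8.49 and 8.43 against 7.58 and 7.69; of its other 2 detected probe sets 1 differed by -0.02 and the other by 0.50. TUBA1A, an alpha tubulin, was 1.75-fold higher and its opposite-side mean of 6.74 was close to the treated mean of 6.79. TPM4, a tropomyosin, differed by 0.585, and its other probe sets were below 5 in both pools. In the epithelial junction list 3 of 39 detected genes were higher and 1 lower, with a median of 0.16. The integrin subunits ITGA2 and ITGB8 were 1.73-fold and 1.67-fold higher, with opposite-side means of 6.95 and 7.68 beside treated means of 7.20 and 7.70, and the gap junction gene GJB2 was 1.61-fold higher, while MARVELD3, a tight junction protein, fell by 0.75. ITGAV, outside the list, read 8.89 and 8.85 in control, 9.55 and 9.55 in treated and 9.68 and 9.68 in opposite-side arrays, so both tumours of the treated animals were above control.

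The matrix and mesenchymal list had 3 higher genes of 10 detected, with a median of 0.48, which was 0.23 without the _x_at and _s_at probe sets, and 0.41 in the opposite-side pool. TAGLN, an actin-binding protein of smooth muscle and fibroblasts, was 3.16-fold higher, VIM, the mesenchymal intermediate filament, 2.20-fold, and COL1A1, a collagen chain, 1.59-fold. COL1A1 read 6.62 and 6.68 in control, 7.31 and 7.33 in treated and 7.16 and 7.14 in opposite-side arrays. These same 3 genes were the called members of the fibroblast marker list, of which 4 of 14 were detected. The log2 of the summed level of that list was 8.65 to 8.78 on the control, 9.71 to 9.73 on the treated and 9.47 to 9.51 on the opposite-side arrays, with 3 and 2 markers at the lowest value on the control arrays. Skeletal muscle markers also moved, from 8.35 to 8.40 in control to 8.70 to 8.76 in treated arrays, with ACTA1 at least 1.21-fold and MYL11 3.04-fold higher, and TNNT1, a slow troponin, at -0.45. The arrays are built for human transcripts and the host is a mouse; the part of these cell types in the results was not tested. Markers of colon epithelium kept a summed level of 14.8 in control and 15.0 in treated arrays, and of 9 detected genes 5 lay above and 3 below control in all 4 array pairs. EPCAM, the epithelial adhesion molecule, differed by 0.16, the keratin KRT18 by 0.12 and LGALS4, an intestinal galectin, by -0.09, and TFF3 was the called member of this list, lower by 0.64. Endothelial, leukocyte and red blood cell markers had 1, 1 and 0 detected genes.

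Signalling ligands and their regulators followed. In the list of TGF-beta, BMP and Notch genes 3 of 19 were higher and 1 lower, with a median of 0.24, or 0.09 as a mean over each gene's probe sets (0.03 in the opposite-side pool). TGFBI, a secreted matrix protein induced by TGF-beta, read 9.96 and 9.95 in control, 10.92 and 10.94 in treated and 10.65 and 10.65 in opposite-side arrays (1.97-fold treated over control). SKIL, a repressor of SMAD signalling, was 2.07-fold and the Notch ligand JAG1 1.79-fold higher. BMP2, a bone morphogenetic protein, was 1.59-fold lower, at 6.81 and 6.83 against 6.19 and 6.12, and its opposite-side mean of 6.17 equalled the treated mean within the array spread. Its other probe set differed by -0.09. Of the Wnt and stem cell list 2 of 17 genes were higher, the Wnt inhibitor DKK1 at 2.12-fold and the stem cell receptor LGR5 at least 1.48-fold, with a median of 0.25, or 0.15 as a mean over each gene's probe sets. ZNRF3, a membrane ligase that removes Wnt receptors, differed by 0.58 and the cyclin CCND1 by 0.49.

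Some secreted factors and nuclear or RNA-binding regulators outside the lists, chosen after their values were seen, were higher in the treated than the control pool. EDN1, the vasoconstrictor endothelin 1, read 8.10 and 8.19 in control, 8.96 and 8.93 in treated and 8.06 and 8.06 in opposite-side arrays (1.74-fold). PDGFB, a growth factor for pericytes and fibroblasts, was 1.72-fold higher at 6.33 and 6.29 against 5.64 and 5.41, and its other detected probe set differed by 0.77. SEMA3C, a guidance ligand, was 1.75-fold higher (6.35 to 7.16). HIRA, a histone chaperone for the variant H3.3, read 6.56 and 6.50, then 7.46 and 7.43, then 6.57 and 6.57 (1.88-fold). In EDN1 and HIRA the opposite-side arrays lay within 0.10 of the control mean. ETS1, an ETS transcription factor, and RBMS1, an RNA-binding protein, showed another order. ETS1 stood at 7.59 in control, 8.56 in treated and 8.50 in opposite-side tumours, and RBMS1 at 7.41, 8.36 and 8.24. Other detected probe sets of RBMS1 differed by 0.33, 0.32 and 0.25 between treated and control and did not pass the rule.

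**Figure D2:**
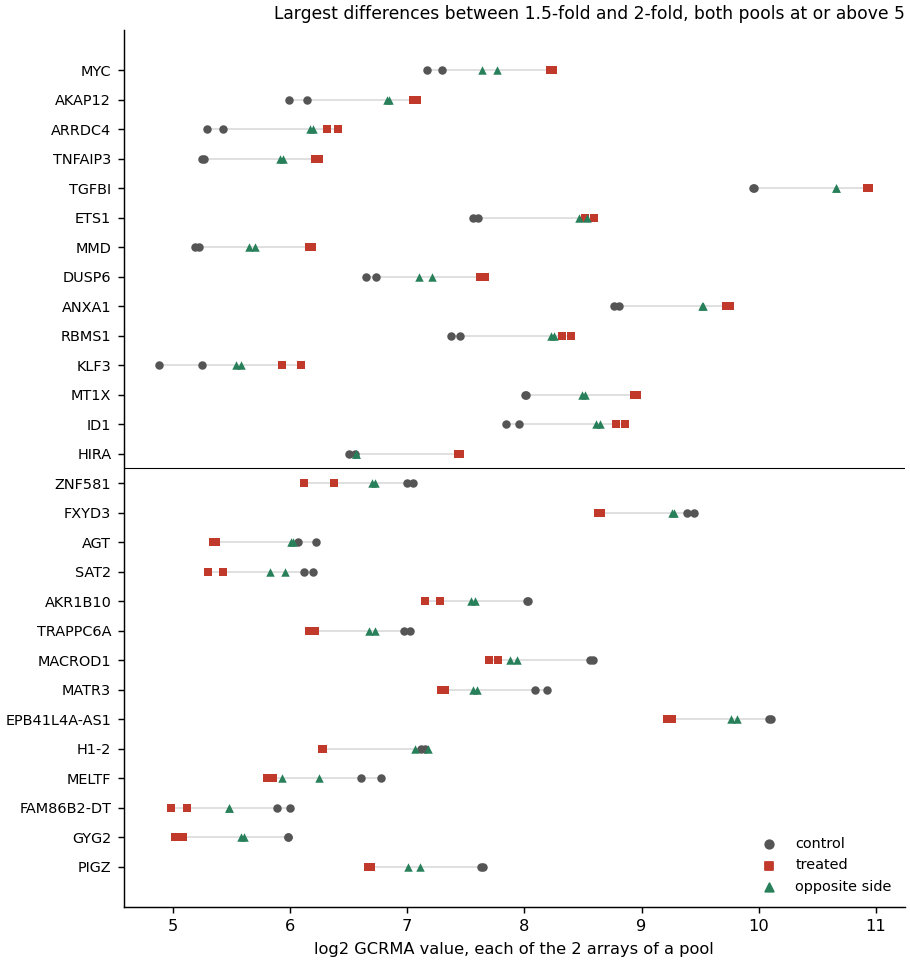
Log2 GCRMA value on each of the 2 arrays of the control (grey circles), treated (red squares) and opposite-side (green triangles) pools for the 14 largest higher and the 14 largest lower genes between 1.5-fold and 2-fold with both pools at or above 5. The array pairs of a pool lie close together, and the opposite-side points lie near control for HIRA and H1-2 and near treated for ETS1.

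Metal-binding, survival and stress-ligand genes were also among the small shifts. MT1X, a metallothionein that binds zinc and copper, read 8.00 and 8.02 in control, 8.96 and 8.94 in treated and 8.49 and 8.52 in opposite-side arrays (1.92-fold). MT2A was 1.63-fold and MT1F 3.01-fold higher, so that 3 of 20 genes of the metallothionein and zinc list were called, and the zinc exporter SLC30A1 differed by 0.48. Metallothionein genes are near-identical copies whose probes can share signal. Of 24 apoptosis genes 2 were higher. MCL1, an anti-apoptotic BCL2 relative, was 1.52-fold higher, with an opposite-side mean of 10.08 between control (9.74) and treated (10.35). CFLAR, an inhibitor of caspase 8, was 1.58-fold higher with an opposite-side mean of 6.91 above the treated mean of 6.83. Its other 3 detected probe sets differed by 0.60, -0.25 and -0.13. ANXA1, an anti-inflammatory phospholipid-binding annexin, was 1.93-fold higher (8.78 to 9.73, opposite side 9.52), and ANXA3 was higher by 0.76 (8.33 to 9.10, opposite side 9.11). CD59, which blocks complement, and ULBP2, a ligand of natural killer cells, passed at 1.51-fold and at least 1.11-fold. The p53 target list had 0 calls among 15 genes and a median of 0.08.

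Amino acid and cell cycle genes gave isolated calls. SLC38A2, a glutamine transporter, was 1.62-fold higher, and its opposite-side arrays at 10.01 and 10.05 matched the treated arrays at 10.04 and 10.07. Of the ATF4 amino acid stress list it was the called gene of 36, and the list median was -0.02. E2F7, a repressor of cell cycle genes, was 1.88-fold higher, and PLK4, the kinase of centriole duplication, was higher by 0.59 from a control mean below 5. They were the calls among 46 cell cycle genes. The other detected PLK4 probe set differed by 0.12. CRY1, a circadian repressor, was 1.66-fold higher and EIF4G2, a translation initiation factor, 1.52-fold. Splicing factors, proteasome genes and cholesterol and fatty acid synthesis genes had 0 calls among 87, 43 and 22 detected genes, with SQLE, the squalene epoxidase, at 0.56 and the proteasome subunit PSMD12 at 0.58. Chromatin regulators (2 of 79), ubiquitin ligases and deubiquitinases (3 higher and 2 lower of 154) and solute carriers (3 higher and 2 lower of 121) were called at shares of 2.53%, 3.25% and 4.13%, near the 4.40% of all detected genes.

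Lower genes of other functions follow, among them genes in no list. Goblet cell and enterocyte genes were lower in 4 of 14 detected cases with 0 higher, and the list median was -0.32, or -0.21 with detection set at 4 (-0.05 in the opposite-side pool). REG4, a secreted lectin of intestinal secretory cells, read 10.28 and 10.34 in control, 9.69 and 9.71 in treated and 9.54 and 9.48 in opposite-side arrays (1.52-fold lower in treated than control). FCGBP, a mucus protein that binds the Fc part of IgG, was 1.65-fold lower and its opposite-side mean of 4.90 was lower still. MUC1, a membrane mucin, fell by 0.59 in the treated pool, to 7.97 and 7.95 from 8.56 and 8.53, and the opposite-side arrays at 8.44 and 8.52 stayed close to control. TFF3, the goblet cell trefoil peptide, was at least 1.29-fold lower, and MUC5AC, MUC20 and MUC13 differed by -0.57, -0.50 and -0.33. Outside the list, and picked after their values were seen, the epithelial transcription factor ELF3 was 1.60-fold lower, the ion transport regulator FXYD3 1.71-fold, the intestinal galectin LGALS2 1.69-fold, the leukotriene enzyme ALOX5 1.68-fold and the protease inhibitor SERPINA1 1.53-fold. LGALS2 and ALOX5 had opposite-side means of 8.98 and 8.84, within 0.15 of control, whereas that of SERPINA1 (9.36) was near the treated mean of 9.28.

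Hypoxia and glycolysis genes were lower in 3 of 42 detected cases, and 33 of the 42 lay below control in all 4 array pairs against 6 above, with a median of -0.17, which was -0.11 without the _x_at and _s_at probe sets. The opposite-side median of the list was -0.02, and 3 genes of the list were lower there, of which ADM was also lower in the treated pool. ADM, the vasodilator adrenomedullin, read 9.37 and 9.36 in control, 8.62 and 8.62 in treated and 8.37 and 8.39 in opposite-side arrays (1.68-fold lower in treated). EGLN3, an oxygen-sensing prolyl hydroxylase, was 1.57-fold lower, with its other probe set at -0.05, and ANKRD37, a target of hypoxia-inducible factor, was at least 1.08-fold lower. PDK1, which restrains pyruvate oxidation, differed by -0.57, HILPDA, a lipid droplet protein, by -0.55, and the collagen prolyl hydroxylase P4HA2 by 0.46.

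Interferon-inducible genes gave 2 lower and 0 higher calls among 11 detected of 41 measured, with a median of -0.31. That median was -0.11 with detection set at 4, -0.13 without the _x_at and _s_at probe sets and -0.19 without the second control array. IFITM2 and IFITM3, near-identical membrane proteins that restrict virus entry and whose probes can share signal, were 1.58-fold and 1.53-fold lower. IFITM3 read 8.56 and 8.61 in control, 8.03 and 7.92 in treated and 8.06 and 8.04 in opposite-side arrays. GBP2 differed by -0.53 and IRF1, an interferon-induced transcription factor, by 0.34. MHC class I and peptide-loading genes had 0 calls among 14. Of the NRF2 antioxidant list the aldo-keto reductases AKR1B10 and AKR1C1 were lower, by 1.75-fold and at least 1.20-fold, among 26 genes, while NFE2L2, which encodes NRF2, differed by 0.54.

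Histone genes gave 2 lower calls among probe sets naming 1 gene, and histone sets naming several genes are given further below. H1-2, a linker histone, read 7.12 and 7.15 in control, 6.28 and 6.27 in treated and 7.07 and 7.18 in opposite-side arrays (1.82-fold lower in treated). H2BC4 was at least 1.38-fold lower. The median of 16 detected histone genes was -0.13, or -0.21 with the probe set of largest difference (0.04 in the opposite-side pool). Histone genes are near-identical copies, so these values may hold signal of several. FBXO32, a muscle atrophy ubiquitin ligase under FOXO control, was 2.14-fold lower, with an opposite-side mean of 5.59 near the treated mean of 5.41, and its other 2 detected probe sets differed by -0.17 and -0.13. CIRBP, the cold-inducible RNA-binding protein, read 9.33 and 9.26, then 8.58 and 8.61, then 9.44 and 9.36 in control, treated and opposite-side arrays, so only the treated pool was low among the 3. It was 1.63-fold lower and was picked after its value was seen, as were the nuclear matrix protein MATR3 (1.79-fold lower) and the mono-ADP-ribosyl hydrolase MACROD1 (1.78-fold lower), whose other probe set differed by -0.02.

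Calls among long noncoding transcripts were all in the lower direction. Of 128 detected genes annotated as long noncoding RNA 0 were higher and 14 lower (10.9%), and their median was -0.16. Among 7006 protein-coding genes 200 were higher (2.85%) and 95 lower (1.36%), with a median of -0.01. The opposite-side pool had 2 higher and 11 lower long noncoding genes and a median of -0.16 against the same control. EPB41L4A-AS1 read 10.09 and 10.10 in control, 9.21 and 9.26 in treated and 9.76 and 9.82 in opposite-side arrays (1.81-fold lower), and its other probe set differed by -0.94. ZFAS1, a host of small nucleolar RNAs, was 1.52-fold lower at 10.83 and 10.80 against 11.40 and 11.44, and its other 3 probe sets differed by -0.55, -0.48 and -0.55. SNHG19, another such host, was 1.60-fold lower. A larger difference was that of ASH1L-AS1, which was 2.03-fold lower. It read 6.65 and 6.52 in control, 5.55 and 5.58 in treated and 6.64 and 6.51 in opposite-side arrays. Array probes for transcripts antisense to or overlapping other genes can hold signal of both.

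Most protein-coding genes of the ribosome and of mitochondria showed shifts far smaller than 1.5-fold. Among ribosomal protein and respiratory chain genes most shifts had the same sign. The ribosomal RNA precursor gene RNA45SN5 shifted more. It read 6.58 and 6.46 in control, 5.42 and 5.22 in treated and 6.15 and 6.13 in opposite-side arrays (2.30-fold lower in treated than control). Its other probe set differed by -1.52. Of 51 detected ribosomal protein genes 45 lay below control in all 4 array pairs and 4 above, with 0 calls and a median of -0.08. RPL36 differed by -0.33 and RPL19 by -0.24. Of 69 respiratory chain genes 50 lay below and 10 above, with a median of -0.10 (-0.01 in the opposite-side pool), and NDUFA10, a complex I subunit, was lower by 1.51-fold. The 62 ribosome biogenesis genes had 39 below and 16 above and a median of -0.13, with the nucleolar methyltransferase FBL at -0.56. Their opposite-side median was -0.18. MRPL54 was 1.52-fold lower among 73 mitochondrial ribosome genes, of which 37 lay below control in all 4 array pairs and 17 above. The median of these genes was -0.07, against -0.06 in the opposite-side pool. Over all detected genes 2915 lay below control in all 4 pairs and 2499 above.

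**Figure D3:**
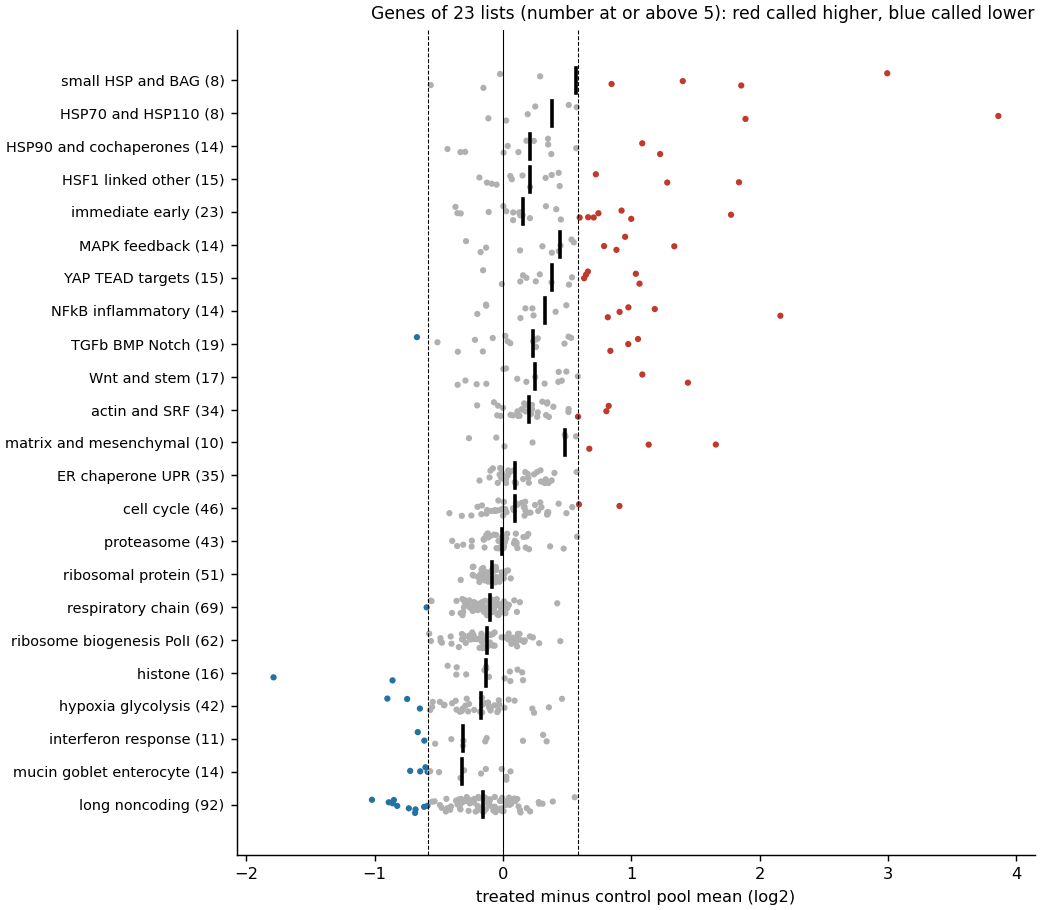
Difference of treated minus control pool mean (log2) for each detected gene of 23 lists, with red points called higher, blue points called lower, grey points not called, black bars at list medians and dashed lines at 1.5-fold. Medians run from 0.57 for small HSP and BAG genes to -0.32 for mucin and goblet genes, and called genes form a small part of most lists.

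Other detected probe sets of the same genes gave a further reading. Of the higher genes, 67 had 97 other detected probe sets, of which 85 (87.6%) had the same sign and 44 also passed the rule, with a median of 0.54. Of the lower genes, 34 had 49 others, of which 47 (95.9%) had the same sign and 11 passed, with a median of -0.45. Among 2321 genes that were not called, 2218 of 3442 other probe sets (64.4%) had the sign of the main one. These readings come from the same RNA and arrays. A probe set counted as detected at or above 5 in either pool, so some entered only through their higher pool. An EGR1 probe set, for example, was at 3.75 in control and 5.22 in treated tumours. The shares above are therefore a description and no independent check of the calls. Disagreement was found in named genes too: without the _x_at and _s_at probe sets CFLAR differed by -0.13, RAD23B, a DNA repair protein, by -0.37 and UBE2G1, a ubiquitin-conjugating enzyme, by -0.06.

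**Figure D4:**
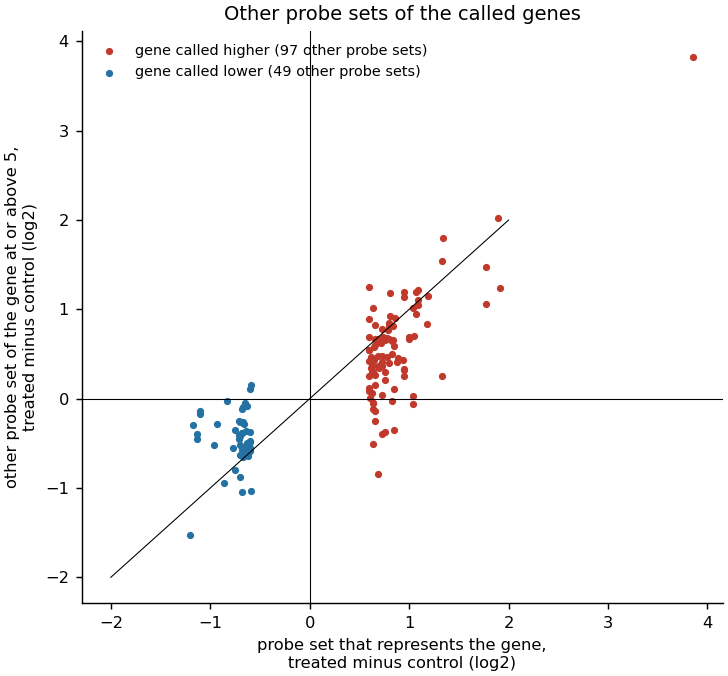
For called genes, the log2 difference of treated minus control of each other detected probe set (y axis) against that of the probe set representing the gene (x axis), with red for 97 probe sets of higher and blue for 49 of lower genes and a line of equality. Most points keep the sign of the x axis value (85 of 97 and 47 of 49) and many lie nearer to 0 than the line.

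The control probe sets of the array differed between the pools as well. For ACTB the 5′ probe set read 7.82 and 7.77 in control and 8.90 and 8.91 in treated arrays, a difference of 1.12, while those at the middle and the 3′ end differed by 0.63 and 0.23. For GAPDH the 5′, middle and 3′ probe sets differed by -0.46, -0.12 and -0.03. The part of RNA integrity and labelling in the differences above was not tested.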

How the data were processed

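The deposited series matrix held 1 column for each of the 6 arrays. Its values are on the log2 scale, read from their range (2.37 to 14.5), and the submitters' processing notes name GCRMA without a version. The arrays' scanner signals were not used here. GCRMA corrects background, normalizes by quantiles and summarises probes, so all arrays share nearly the same distribution and a shift of all genes together cannot be seen. Of the probe sets, 41097 named 1 gene, 1801 several and 11777 none, and 41043 were matched by Entrez identifier. Genes, the call rule and the bounds are as described with the results, and differences were taken between means of the 2 technical arrays. Arrays have no sequencing depth, and the precision is limited by how few there are.

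The members and the 50 functional and 7 marker lists were chosen with earlier results of these data known. Any gene past the rule could be named, with up to 4 further members of each list. Naming in order of size within a function was planned but not followed throughout, and some larger members are not named. The 15 alternatives changed the floor, array scaling, averaging, probe set choice and the arrays used. The rule was checked on simulated data with the spread found between the control arrays. That check cannot speak to differences between pools of animals. Promoters came from RefSeq for GRCh38.p14. Scripts ran in Python 3.11.15 with matplotlib 3.10.9, pandas 2.3.3 and numpy 2.4.6.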

Additional observations from a re-analysis of the deposited data

Results flagged for a closer look

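Signal lay outside the gene comparisons in probe sets that name several genes or none, and the values here are treated minus control on the log2 scale. Of 641 detected probe sets naming several genes, 15 were 1.5-fold higher and 20 lower. Among the lower were histone sets naming H2AC18 with H2AC19 (-1.07 and -0.74), H2BC8 with H2BC11 (-0.81) and H3-3A with H3-3B (-0.65). Sets naming the long noncoding NEAT1 with a microRNA differed by -0.94 and -0.68. Those naming SNHG12, SNHG5 and SNHG8 with small nucleolar RNAs differed by -0.765, -0.66 and -0.62. Both probe sets naming HSPA1A with HSPA1B, the main inducible HSP70 genes, were higher by 1.80 (control 10.20, opposite side 10.17) and 1.41, and the set that also names HSPA1L by 2.06. The 4 probe sets naming HSPA8, the constitutive HSP70, with 2 small nucleolar RNAs were higher by 1.63, 1.01, 0.88 and, for the brightest, 0.79. A probe set naming AKAP2 and PALM2AKAP2 was higher by 1.15. The set naming UBD, a ubiquitin-like protein, and GABBR1 was at 4.35 in control, 6.91 in treated and 6.23 in opposite-side tumours. Its measured difference was 2.55, and against 5 it was at least 3.75-fold higher. The set naming HBA1 and HBA2, the alpha globins, was at 2.65, 5.05 and 2.72, a measured difference of 2.402 from a level near the lowest value and at least 1.04-fold higher against 5. Of 1354 detected probe sets naming no gene, 36 were higher (2.66%) and 86 lower (6.35%) at 1.5-fold, and 18 were higher and 12 lower at 2-fold.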

How the results depend on the processing

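No paired analysis was possible because each group is 1 pool on 2 technical arrays and the results come from no test. The count of genes higher by 1.5-fold ranged from 144 to 269 over the 15 alternatives. A floor of 6 ended 91 of the 317 calls, raising values below 5 to 5 ended 47 and the mean over probe sets ended 49. Without the _x_at and _s_at probe sets 44 calls ended, 14 turned in sign and 52 genes were not measured. Of the 52 genes called at 2-fold, 31 kept a 1.5-fold call under every alternative. The share of all 317 calls kept in this way was smaller. The 116 lower genes became 74 with a floor of 6 and 177 with the probe set of largest difference. The 7 genes lower by 2-fold became 4 with a floor of 6, 4 with values below 5 raised to 5, 4 with the mean over probe sets and 16 with the probe set of largest difference. Leaving out each array gave 200 to 217 higher and 120 to 130 lower genes at 1.5-fold, and 45 to 48 and 6 to 9 at 2-fold. Among the genes named above, the call ended for GJB2 (0.56), MCL1 (0.57), MRPL54 (-0.55) and MUC1 (-0.57) without control array 1. It ended for CD59 (0.58), DLEU2 (-0.49), IFITM3 (-0.584), PLK4 (0.53), PTGS2 (0.584), REG4 (-0.57), TPM4 (0.52) and ULBP2 (0.57) without control array 2. Without treated array 1 it ended for CD59 (0.54), FOSL2 (0.51), PLK4 (0.57) and SERPINA1 (-0.584), and without treated array 2 for DLEU2 (-0.46), IFITM3 (-0.56), LATS1 (0.54), MRPL54 (-0.52), MUC1 (-0.58), NDUFA10 (-0.52), TFF3 (-0.41) and TPM4 (0.583). Scaling to the spike-in median or to the detected median, or quantile normalization, left 66.8%, 65.9% and 65.2% of calls higher. Without the _x_at and _s_at probe sets the sign turned on a detected probe set for CFLAR (-0.13), IFNGR1 (-0.051), KRR1 (-0.50), RAD23B (-0.37) and UBE2G1 (-0.06). For CDH11 (-0.022), MAGOHB (-0.013), PDGFB (-0.005), REV3L (-0.71), STK17A (-0.0045), TPM4 (-0.11), ELAC2 (0.001), FGD2 (0.043) and IFT122 (0.031) the probe set left was below 5 in both pools, so these values do not bear on the calls. KIAA1217 became -0.0745 as a mean over probe sets and -0.84 with the probe set of largest difference. Some list medians moved away from 0. That of HSP90 and its co-chaperones became 0.35 without the _x_at and _s_at probe sets. With a floor of 6 the medians were 0.33 for other genes linked to HSF1 and -0.465 for interferon-inducible genes. The probe set of largest difference gave 0.33 for the HSF1-linked, 0.43 for the Wnt and stem cell and -0.28 for the hypoxia list. The causes were not tested. Signal near the background limits the 41 higher and 23 lower calls whose lower pool was below 5.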
